A study of Mus musculus with 8 samples.

Results

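Acute-phase proteins and the signals that induce them were followed in lungs of mouse embryos with and without the sorting nexin gene Snx5. The 9 genes were chosen by symbol: Saa3, Hp, Cebpb, Cebpd, Socs3, Il1b, Il6, Nfkbia and Tnfaip3. Saa3 and Hp were picked because they differed between genotypes on these arrays, and the other genes were set beside them. All probes carrying these symbols were taken, which gave 10 probes of 8 genes among 25697 probes and 16593 named genes. Cebpd, which encodes the transcription factor C/EBP delta, had no probe under its symbol and is not analysed here.

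Whole lungs were taken at embryonic day 18.5 from C57BL/6 mice in 4 groups of 2 arrays each, 8 arrays in all. The groups were Snx5+/+ non-air, Snx5-/- non-air, Snx5+/+ air and Snx5-/- air lungs. In the air groups, pups delivered by caesarean section were cleared of lung fluid and left to breathe in a warm chamber, whereas the non-air lungs had not breathed. The mutant allele is a gene trap, a beta-geo cassette inserted in intron 7 of Snx5 in a single embryonic stem cell line, carried in every cell and crossed back to C57BL/6, and both genotypes came from crosses of heterozygotes. The 2 arrays of a group were described as biological replicates, but the labels do not say which animals they came from, so p-values measure only the spread between these arrays. An exact permutation test of 2 against 2 arrays cannot give a p below 0.333, and the tests below therefore come from limma, which borrows the spread across all probes.

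In the acute-phase response, injury or microbial signals make cells release the cytokines interleukin-1 beta (Il1b) and interleukin-6 (Il6). Interleukin-1 activates the transcription factor NF-kappaB, which switches on its own inhibitors Nfkbia (I-kappaB alpha) and Tnfaip3 (A20), and interleukin-6 signals through STAT3, which induces the feedback inhibitor Socs3. These factors act with C/EBP proteins such as Cebpb on the genes of acute-phase proteins, among them haptoglobin (Hp), which binds free haemoglobin, and serum amyloid A3 (Saa3), a form made mainly outside the liver. At birth the lung replaces fluid with air and its surface meets oxygen, stretch and the outside world for the first time.

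The air labels of these arrays are not settled. Each signal column of the deposited intensity table followed the log2 column of the other air state, with a rank correlation of at least 0.9998, against at most 0.972 with any other log2 column. The detection p-values of the same table instead followed the log2 labels. Values below use the log2 table under its own labels. Under the other labels every air difference changes sign, and the genotype differences of non-air and air lungs change places. The genotype difference averaged over air states is the same under both.

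Snx5 itself was near the floor of the array. Its brighter probe read 7.88 and 7.85 in Snx5+/+ non-air lungs, 7.84 and 8.42 in Snx5+/+ air lungs, 7.23 and 7.24 in Snx5-/- non-air lungs and 7.29 and 7.10 in Snx5-/- air lungs, on the log2 intensity scale. All Snx5-/- arrays lay below all Snx5+/+ arrays, although only 1 array was above background at a detection p-value under 0.01. Where this probe lies relative to the insertion was not examined. Between 12209 and 12685 probes were detected on each array, and markers of lung epithelium were detected for 8 of 9 genes, with Hopx the exception. Both Snx5-/- air arrays stood apart in sex-linked genes. Xist, which is made from the inactive X chromosome, read 7.83 and 7.77 there and 11.82 to 12.58 on the other 6 arrays. The Y-linked gene Eif2s3y read 11.81 and 11.73 there and 7.13 to 7.40 elsewhere. The sex of the embryos and the Snx5-/- air group therefore cannot be told apart in any comparison that uses these arrays. The air comparison in Snx5+/+ lungs does not use them.

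Saa3 was low in Snx5+/+ lungs before breathing and higher in the other 3 groups. It read 10.09 and 9.44 in Snx5+/+ non-air lungs, 10.97 and 10.88 in Snx5-/- non-air lungs, 10.85 and 10.88 in Snx5+/+ air lungs, and 10.65 and 10.93 in Snx5-/- air lungs, as log2 intensity. The first group lay below all other arrays, and the other 3 groups overlapped. Because its genotype difference chose the gene, that difference is given as a description: 1.16 on the log2 scale in non-air lungs, a 2.23-fold higher level in Snx5-/-, and -0.07 in air lungs. In Snx5+/+ lungs Saa3 was 1.10 higher with air on the log2 scale (SE 0.18, 95% interval 0.70 to 1.49, adjusted p = 0.0167, limma with Benjamini-Hochberg adjustment), a 2.14-fold rise. In Snx5-/- lungs the air difference was -0.14 (SE 0.18, 95% interval -0.53 to 0.26, adjusted p = 0.873, limma). The Snx5+/+ non-air arrays enter both the rise and the genotype difference that chose the gene, so the rise is not independent of that choice. Without Snx5+/+ air replicate 1 the difference was 1.11 with an adjusted p of 0.117, and without replicate 2 it was 1.08 with an adjusted p of 0.172 (limma). Over the settings that kept both arrays of each group, the adjusted p of this rise ran from 0.00364 to 0.594 (limma, or an ordinary t-test for the upper end).

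**Figure D1:**
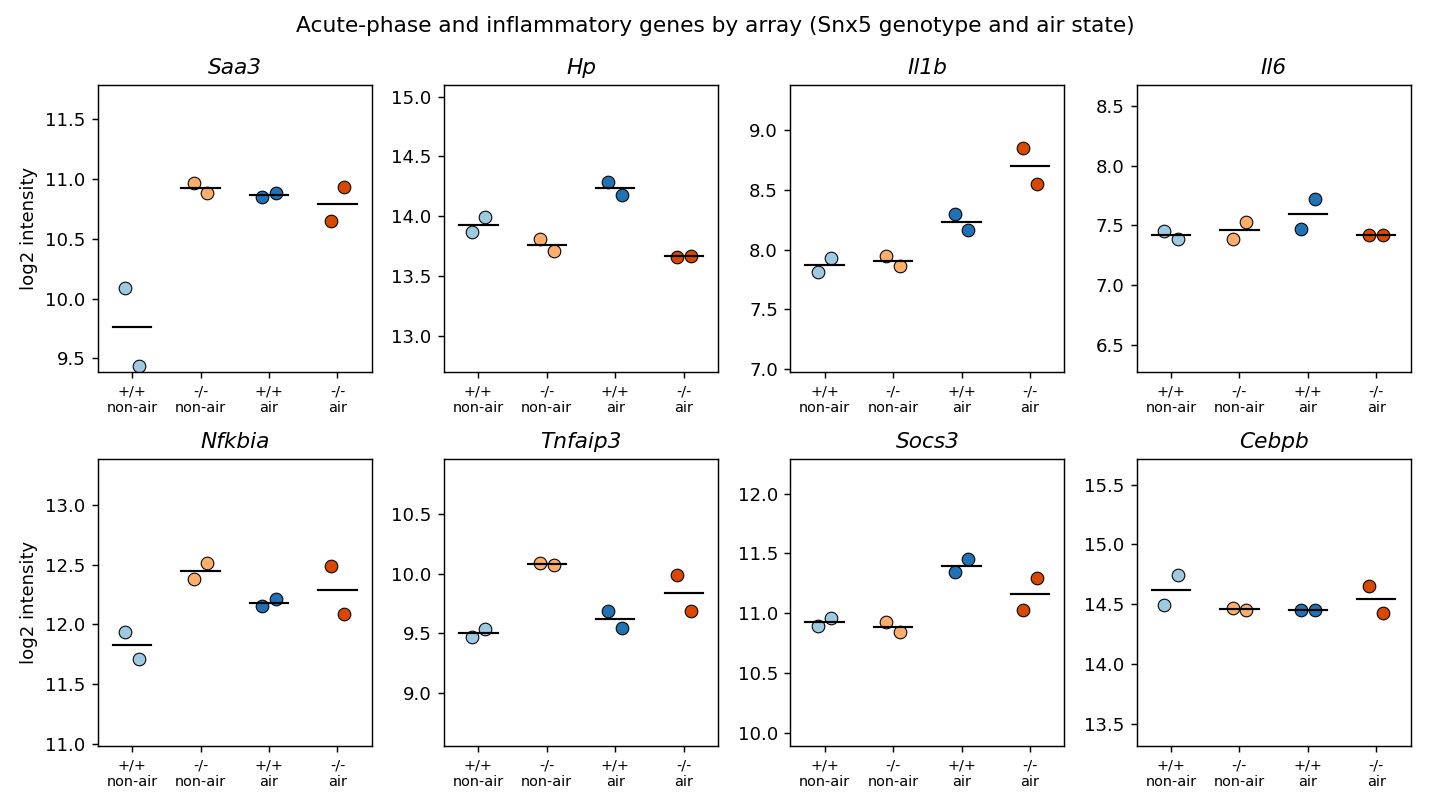
Log2 intensity (vertical axis, the same span in every panel) of 8 genes on 8 arrays, 1 point per array and a line at the mean of each group of 2, with Snx5 genotype and air state on the horizontal axis. Saa3 is low in both Snx5+/+ non-air lungs, Il1b is highest in both Snx5-/- air lungs, and Nfkbia and Tnfaip3 are lowest on average in Snx5+/+ non-air lungs.

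Haptoglobin was lower in Snx5-/- lungs at all 3 of its probes. The brightest probe read 13.87 and 13.99 in Snx5+/+ non-air lungs, 13.81 and 13.71 in Snx5-/- non-air lungs, 14.29 and 14.18 in Snx5+/+ air lungs, and 13.66 and 13.67 in Snx5-/- air lungs. The 4 groups did not overlap at this probe, in the falling order Snx5+/+ air, Snx5+/+ non-air, Snx5-/- non-air and Snx5-/- air. The genotype difference that chose the gene was -0.17 in non-air and -0.57 in air lungs on the log2 scale, and -0.37 averaged over both. At the other probes the averaged difference was -0.36 and -0.40. With air the brightest probe was 0.30 higher in Snx5+/+ lungs (SE 0.10, adjusted p = 0.195) and -0.10 in Snx5-/- lungs (SE 0.10, adjusted p = 0.831, limma), and neither passed. The other probes gave -0.07 and -0.04 in Snx5+/+ lungs, so the probes differed in sign.

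Between genotypes, the counts of called genes stand beside the share called among all tested genes, and nothing is read from them because the list was drawn up from this difference. A call needed an adjusted p under 0.05 and a log2 difference above 0.35 in size. In non-air lungs 1 of 6 tested members was called (Saa3), against 0.703% of all tested genes. In air lungs it was 1 of 7 (Hp), against 2.69%, and averaged over air states 3 of 7 (Saa3, Tnfaip3 and Hp), against 2.70%. The number of tested members differs because Il1b was not bright enough in non-air lungs.

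The promoters of Saa3 and of both NF-kappaB inhibitors are shown because the mean of each of these 3 genes was lowest in Snx5+/+ non-air lungs, and that of Socs3 because it is the STAT3 feedback gene of the set. The mean of Il1b was also lowest in Snx5+/+ non-air lungs (7.87, not detected), and its promoter, which held no motif match, is not printed. Nothing is therefore read from which of the promoters shown hold a match. Each run holds the 250 bases before the start in RefSeq (build GRCm38.p6), 5′ to 3′ on the strand of the gene, with motif matches in capitals.
Saa3 (chr7:46715677-46715926, minus strand): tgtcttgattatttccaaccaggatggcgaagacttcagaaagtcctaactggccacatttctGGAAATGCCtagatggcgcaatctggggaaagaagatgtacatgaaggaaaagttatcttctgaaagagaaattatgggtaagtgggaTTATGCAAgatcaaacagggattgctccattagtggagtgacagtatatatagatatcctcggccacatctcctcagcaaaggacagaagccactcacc
Nfkbia (chr12:55492648-55492897, minus strand): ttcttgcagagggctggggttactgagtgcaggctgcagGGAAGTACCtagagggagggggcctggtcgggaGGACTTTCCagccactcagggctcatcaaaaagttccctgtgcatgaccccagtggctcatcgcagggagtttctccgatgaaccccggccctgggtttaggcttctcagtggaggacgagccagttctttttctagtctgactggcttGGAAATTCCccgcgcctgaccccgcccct
Tnfaip3 (chr10:19015411-19015660, minus strand): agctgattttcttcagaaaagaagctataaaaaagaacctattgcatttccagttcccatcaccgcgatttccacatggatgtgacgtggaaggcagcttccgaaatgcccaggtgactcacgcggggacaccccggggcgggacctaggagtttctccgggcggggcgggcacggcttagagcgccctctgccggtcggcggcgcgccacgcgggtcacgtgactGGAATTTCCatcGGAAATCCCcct
Socs3 (chr11:117969367-117969616, minus strand): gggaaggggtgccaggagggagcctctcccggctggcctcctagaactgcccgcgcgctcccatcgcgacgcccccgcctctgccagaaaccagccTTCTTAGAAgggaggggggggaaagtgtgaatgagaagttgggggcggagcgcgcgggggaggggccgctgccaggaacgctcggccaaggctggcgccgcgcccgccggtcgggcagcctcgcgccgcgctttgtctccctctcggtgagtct

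Capitals mark matches, on either strand, to an NF-kappaB pattern (GGNNNTTCC), a C/EBP pattern (TTNNGCAA) or a STAT pattern (TTCNNNGAA), where N is any base. Nfkbia held 3 NF-kappaB matches, of which GGAAATTCC lay 29 to 21 bases before the start. Tnfaip3 held 2 at the start shown, GGAATTTCC and GGAAATCCC, both within 24 bases of it, and RefSeq lists a second Tnfaip3 promoter (chr10:19011964-19012213), not printed, with 1 match, GGTTATTCC. Saa3 held 1 NF-kappaB match 187 to 179 bases and 1 C/EBP match 99 to 92 bases before the start the table uses, which lies inside the full span of the gene. Socs3 held a STAT match, TTCTTAGAA, 154 to 146 bases before the start the table uses, and no NF-kappaB match. That start also lies inside the full span of the gene, as does the whole window shown. Such short patterns are common: 15.7% of 32851 promoters of the same length held the NF-kappaB pattern, 9.56% the C/EBP pattern and 7.02% the STAT pattern. Among the 8 promoters of the members, with Tnfaip3 counted at both starts, 5 held the first, 2 the second and 1 the third, and the patterns overlapped in none of the 4 shown. A match is a stretch of letters and was not shown to be bound in these lungs. Il1b and Cebpb had no match in this window, Il6 had an NF-kappaB and a C/EBP match, and the table used here listed no promoter for Hp or Cebpd.

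Il1b, the cytokine upstream of NF-kappaB in this set, was higher with air. It read 7.81 and 7.93 in Snx5+/+ non-air lungs, 7.95 and 7.86 in Snx5-/- non-air lungs, 8.30 and 8.16 in Snx5+/+ air lungs, and 8.85 and 8.55 in Snx5-/- air lungs, as log2 intensity. All 4 air arrays lay above all 4 non-air arrays. No non-air array was above background, and neither was Snx5+/+ air replicate 2. The folds given below as "at least" that use this air array are therefore not strict bounds. The air difference averaged over genotypes was 0.58 on the log2 scale (SE 0.09, 95% interval 0.39 to 0.77, adjusted p = 0.00508, limma), at least 1.43-fold, since the non-air lungs give only an upper bound. It stayed called when any single array was left out, with adjusted p-values from 0.00541 to 0.0457 (limma). Here "at least" sets the mean of the brighter group against that of the dimmer group, in which any value under the weakest detected signal of its array was raised to that signal.

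By genotype, Il1b rose with air by 0.80 in Snx5-/- lungs (SE 0.12, 95% interval 0.53 to 1.06, adjusted p = 0.0143, limma), at least 1.68-fold. In Snx5+/+ lungs the difference was 0.36 (SE 0.12, adjusted p = 0.195, limma), at least 1.22-fold, and did not pass. The gap between these air differences was 0.44 and was not called in the interaction test (adjusted p = 0.364, limma). The Snx5-/- rise was lost without Snx5-/- non-air replicate 1 (0.84, adjusted p = 0.125), without Snx5-/- non-air replicate 2 (0.75, adjusted p = 0.178) and without Snx5-/- air replicate 1 (0.65, adjusted p = 0.104, limma). Over all settings tried its adjusted p ran from 0.00418 to 0.593 (limma, or an ordinary t-test for the upper end).

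Il6 was not detected on any array. Its log2 values ran from 7.39 to 7.72 and were not tested. An amount of Il6 RNA under the floor of the array cannot be seen here.

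With air, 1 of 7 tested members was called in Snx5+/+ lungs (Saa3), against 0.912% of all tested genes, and 1 of 7 in Snx5-/- lungs (Il1b), against 0.764%. Averaged over genotypes it was 1 of 7 (Il1b), against 1.40%. Nothing is read from the Saa3 count, because the Snx5+/+ non-air arrays also enter the genotype difference that chose the gene. Il1b passed the intensity filter only through the air groups, where it was high, so nothing is read from its share in these counts. It was also called in both comparisons without that filter. No member was called in the interaction of genotype and air, against 0.519% of all genes (limma), and 4 of 7 (Saa3, Hp, Nfkbia and Il1b) had an unadjusted p under 0.05 there, against 14.6% of all tested genes. Nothing is read from that count, because Saa3 and Hp were chosen for a genotype difference that enters the interaction. For Saa3 the interaction, the air difference in Snx5-/- lungs minus that in Snx5+/+ lungs, was -1.23 on the log2 scale.

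**Figure D2:**
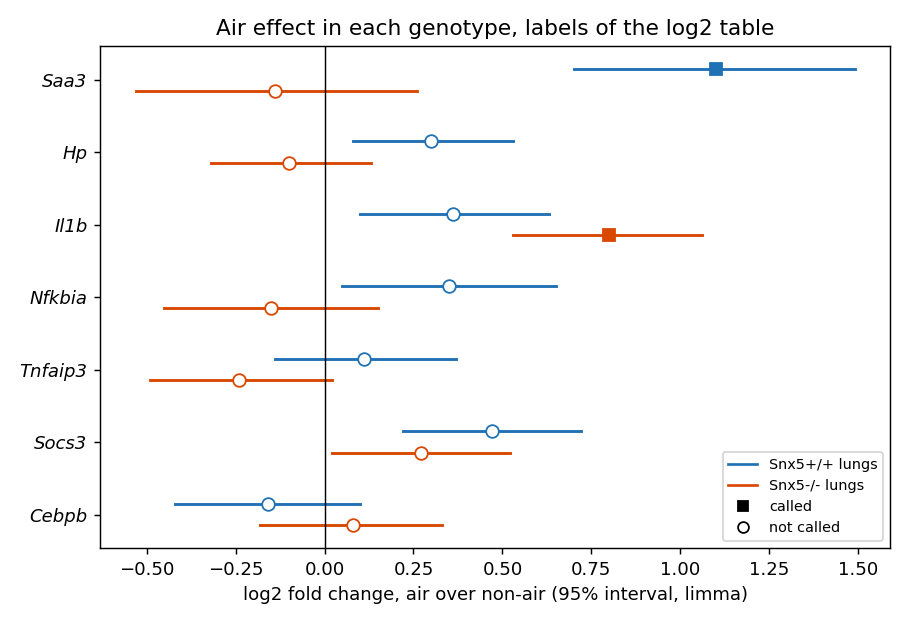
Log2 fold change of air over non-air lungs (horizontal axis) for 7 members, with 95% intervals from limma, in Snx5+/+ (blue) and Snx5-/- (orange) lungs. Filled squares were called and open circles were not: Saa3 is called in Snx5+/+ lungs at 1.10 and Il1b in Snx5-/- lungs at 0.80.

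Both inhibitors of NF-kappaB were lowest on average in Snx5+/+ non-air lungs and highest in Snx5-/- non-air lungs. Nfkbia, which holds NF-kappaB in the cytoplasm, read 11.94 and 11.71 in Snx5+/+ non-air lungs, 12.38 and 12.51 in Snx5-/- non-air lungs, 12.15 and 12.21 in Snx5+/+ air lungs, and 12.49 and 12.09 in Snx5-/- air lungs. Its Snx5+/+ arrays of the air states did not overlap, whereas the Snx5-/- air arrays lay on either side of the Snx5+/+ air arrays. Tnfaip3, a ubiquitin-editing enzyme that switches the pathway off, read 9.47 and 9.54, 10.09 and 10.07, 9.69 and 9.55, and 9.99 and 9.69 in the same order of groups. All 4 Snx5-/- arrays of Tnfaip3 lay at or above the highest Snx5+/+ array. As descriptions, the genotype difference was 0.62 (SE 0.14) for Nfkbia and 0.57 (SE 0.12) for Tnfaip3 in non-air lungs, and 0.11 and 0.22 in air lungs, on the log2 scale.

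Neither inhibitor passed a test of air. Nfkbia differed by 0.35 in Snx5+/+ lungs (SE 0.14, adjusted p = 0.234) and by -0.15 in Snx5-/- lungs (SE 0.14, adjusted p = 0.798, limma). Tnfaip3 differed by 0.11 (SE 0.12, adjusted p = 0.643) and by -0.24 (SE 0.12, adjusted p = 0.553, limma). For Nfkbia the 95% interval in Snx5+/+ lungs ran from 0.05 to 0.65.

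Socs3, the feedback inhibitor of interleukin-6 receptor signalling, was higher on all air arrays. It read 10.89 and 10.96 in Snx5+/+ non-air lungs, 10.93 and 10.84 in Snx5-/- non-air lungs, 11.34 and 11.45 in Snx5+/+ air lungs, and 11.03 and 11.29 in Snx5-/- air lungs. The air arrays did not overlap the non-air arrays, and the non-air groups of both genotypes overlapped. Averaged over genotypes the difference was 0.37 (SE 0.08, 95% interval 0.19 to 0.55, adjusted p = 0.0525, limma), which missed the threshold. Over the settings that kept these air labels its lowest adjusted p was 0.036 (limma). It was not called with neqc, with median scaling or with an ordinary t-test. In Snx5+/+ lungs it was 0.47 (SE 0.11, adjusted p = 0.101) and in Snx5-/- lungs 0.27 (SE 0.11, adjusted p = 0.457, limma).

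Cebpb, a transcription factor of the acute-phase response, differed little. It read 14.49 and 14.74 in Snx5+/+ non-air lungs, 14.47 and 14.45 in Snx5-/- non-air lungs, 14.45 and 14.45 in Snx5+/+ air lungs, and 14.65 and 14.43 in Snx5-/- air lungs. All groups overlapped with at least 1 other group. Its air difference was -0.16 in Snx5+/+ lungs (95% interval -0.42 to 0.10, adjusted p = 0.504) and 0.08 in Snx5-/- lungs (95% interval -0.18 to 0.33, adjusted p = 0.9, limma).

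The wider acute-phase list held 22 genes, of which 21 were on the array and 9 were bright enough to test. With air in Snx5+/+ lungs 1 of 9 was called higher, Lcn2, an iron-carrier binding protein that neutrophils and airway cells also make. Lcn2 read 12.47 and 12.21 in Snx5+/+ non-air lungs, and 13.13 and 12.98 in Snx5+/+ air lungs. Its mean was 12.65 in Snx5-/- non-air and 12.96 in Snx5-/- air lungs. The rise was 0.72 in Snx5+/+ lungs (adjusted p = 0.0148) and 0.51 averaged over genotypes (adjusted p = 0.00783, limma). The first was not called without Snx5+/+ air replicate 1 (0.64, adjusted p = 0.168), Snx5+/+ air replicate 2 (0.80, adjusted p = 0.0954) or Snx5+/+ non-air replicate 2 (0.59, adjusted p = 0.104), and the second was not called in 2 of 8 fits that left out 1 array. The haem-binding protein gene Hpx fell by 0.37 averaged over genotypes (adjusted p = 0.0475, limma), at least 1.28-fold, and was not called in 7 of 8 such fits. The median over the list was 0.08 in Snx5+/+ and 0.05 in Snx5-/- lungs, against -0.01 and 0.00 over all tested probes. Between genotypes in air lungs, as a description, Mt1, a metal-binding metallothionein, was -1.21 and the soluble pattern-recognition gene Ptx3 was -0.58.

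In the list of interleukin-1 signalling genes 14 of 15 were on the array. Casp1, the protease that cuts pro-interleukin-1 beta to its active form, read 9.87 and 9.85 in Snx5-/- non-air lungs and 10.42 and 10.37 in Snx5-/- air lungs. It was the 1 called gene of 8 tested in Snx5-/- lungs, 0.54 higher with air (adjusted p = 0.0302, limma), but was not called in 6 of 8 fits without 1 array, where the adjusted p reached 0.293 (limma). Averaged over genotypes it was 0.37 (adjusted p = 0.0255, limma), not called in 7 of 8 such fits. In Snx5+/+ lungs 0 of 10 were called by limma, and 1 higher and 1 lower had an unadjusted p under 0.05. The medians were -0.02 and 0.07. Il33, an alarmin of the same family, was -0.67 between genotypes in non-air lungs, as a description.

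In the interleukin-6 and JAK-STAT list, 14 of 16 genes were on the array, and the gene called with air was Osm. Osm, which encodes the interleukin-6 family cytokine oncostatin M, read 7.76 and 7.86 in Snx5+/+ non-air lungs, 8.01 and 7.81 in Snx5-/- non-air lungs, 9.39 and 9.36 in Snx5+/+ air lungs, and 8.22 and 8.37 in Snx5-/- air lungs. It was high in Snx5+/+ air lungs, and no array of the other groups reached them. With air it rose by 1.56 in Snx5+/+ lungs (adjusted p = 2.1e-05, limma), at least 2.69-fold, and by 0.97 averaged over genotypes (adjusted p = 4.44e-05, limma). The air difference was smaller in Snx5-/- lungs, and this interaction of -1.18 passed (adjusted p = 0.00405, limma). These calls held in every fit that left out 1 array. Osm passed the intensity filter only through the air groups, where it was high, so nothing is read from its share in the counts. The list as a whole had 1 of 10 genes called in Snx5+/+ lungs with a median of -0.25. In Snx5-/- lungs it was 0 of 11 (1 higher and 1 lower at an unadjusted p under 0.05, limma) with a median of 0.03.

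The list of NF-kappaB subunits, inhibitors and activators had 17 of 20 genes on the array and 16 tested. In Snx5+/+ lungs 0 were called with air by limma (1 higher and 3 lower at an unadjusted p under 0.05), and 1 of 16 had a positive difference, with a median of -0.15. In Snx5-/- lungs 1 was called, Nfkbiz, which encodes a nuclear I-kappaB protein. It read 13.11 and 13.09 in Snx5-/- non-air lungs, 12.60 and 12.49 in Snx5-/- air lungs, 12.58 and 12.55 in Snx5+/+ non-air lungs and 12.34 and 12.50 in Snx5+/+ air lungs. Its fall with air in Snx5-/- lungs was -0.55 (adjusted p = 0.0353, limma), not called in 6 of 8 fits that left out 1 array, where the adjusted p reached 0.292 (limma). Traf1, an adaptor of tumour necrosis factor receptors, fell by 0.43 averaged over genotypes (adjusted p = 0.00917, limma) and was not called in 3 of 8 such fits.

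Among NF-kappaB targets, all 17 were on the array and 9 were tested. Cxcl1, a neutrophil-attracting chemokine, read 9.48 and 9.66 in Snx5-/- non-air lungs against 8.05 and 7.89 in Snx5+/+ non-air, 8.41 and 8.51 in Snx5+/+ air, and 8.35 and 8.18 in Snx5-/- air lungs. Like Nfkbia, Tnfaip3 and Nfkbiz, it was highest on average in Snx5-/- non-air lungs. The lists as a whole did not all share this. Between genotypes in non-air lungs, as a description, 7 of 9 targets had a positive difference, with a median of 0.036. Among subunits, inhibitors and activators it was 7 of 16, with a median of -0.005, against -0.005 over all tested probes. Cxcl1 fell with air by 1.31 in Snx5-/- lungs (adjusted p = 0.000214, limma), and the interaction was -1.80 (adjusted p = 0.000205, limma). Both held in every fit without 1 array, whereas its averaged air difference of -0.41 (adjusted p = 0.0367, limma) was not called in 6 of 8 such fits. In Snx5+/+ lungs 0 of 9 targets were called with air (2 higher at an unadjusted p under 0.05, limma).

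The SOCS family had 5 of 7 genes tested and the C/EBP family with its partners 4 or 5 of 6 on the array. Neither list had a called gene in any of the 7 comparisons by limma, and their medians with air lay between -0.09 and 0.07. At an unadjusted p under 0.05 the air comparisons of each genotype gave 0 SOCS genes, and 1 higher and 1 lower C/EBP gene in Snx5+/+ lungs.

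Immediate-early genes, switched on within minutes of many stimuli and many of them encoding transcription factors, were called more often than any of these lists in Snx5+/+ lungs. With air 12 of 13 tested genes were called higher there, against 0.912% of all tested genes called in either direction. The median was 1.27, and Fos and Egr1 led with 3.29 and 3.18 on the log2 scale. Fosb, Ier2 and Egr3 passed the intensity filter there only through the air group, where they were high. Without that filter the count was again 12. In Snx5-/- lungs 0 of 11 were called (limma), against 0.764% of all tested genes, and the median was 0.35. By limma, 7 had an unadjusted p under 0.05 in the same direction, against 11.8% of all tested genes in either direction. Fosb and Egr3 were not tested in Snx5-/- lungs, so the counts and medians of the genotypes cover different genes. The difference between genotypes passed for 8 of 13 genes in the interaction test, against 0.519% of all tested genes (limma). Without the intensity filter it was again 8. With an ordinary t-test the count called with air in Snx5+/+ lungs was 0.

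**Figure D3:**
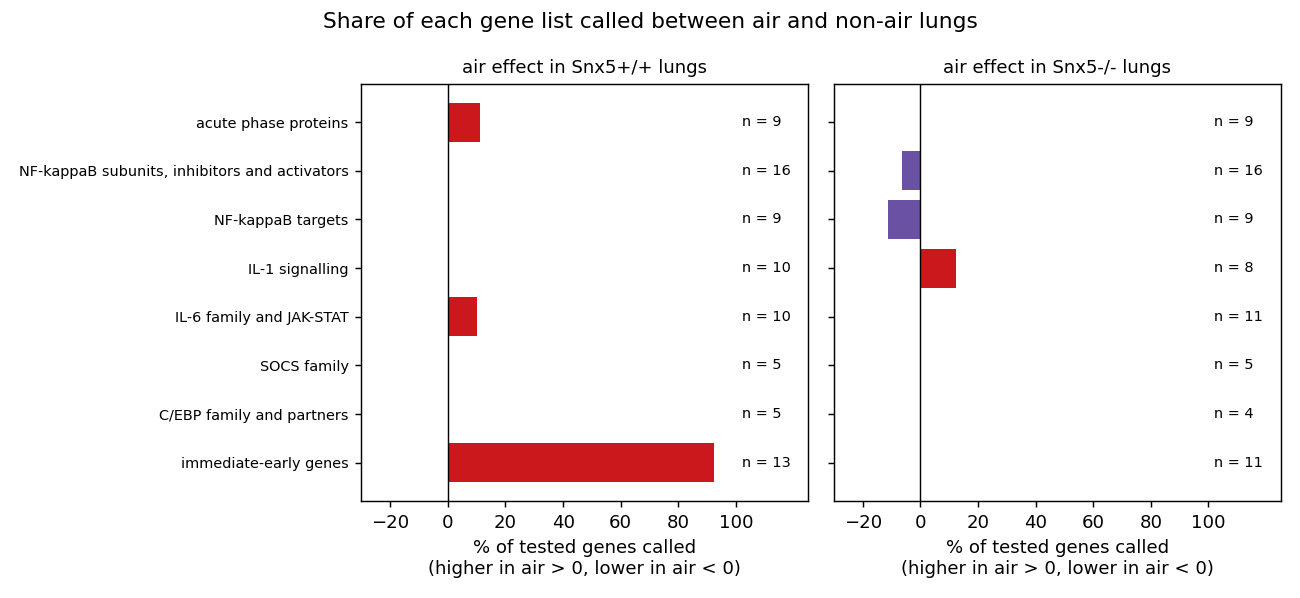
Share of tested genes called between air and non-air lungs (horizontal axis, percent, higher in air to the right in red and lower to the left in purple) for 8 gene lists, with the number tested at the right of each panel. Immediate-early genes in Snx5+/+ lungs (12 of 13) stand apart from the other lists, which have at most 1 called gene in either genotype.

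Neutrophil markers followed Saa3 in part and Il1b in part. Of 12 markers on the array 8 were detected, and the granule genes Elane, Mpo, Prtn3 and Mmp8 were not. Their summed intensity, most of it from S100a8 and S100a9, was 7897 to 11281 in Snx5+/+ non-air, 15213 to 15573 in Snx5-/- non-air, 15774 to 16676 in Snx5+/+ air and 24280 to 28425 in Snx5-/- air lungs. S100a8, a calcium-binding protein abundant in neutrophils, read 12.72 and 12.01, 13.25 and 13.22, 13.28 and 13.32, and 13.90 and 14.13 in that order of groups. Like Saa3, it was lowest on Snx5+/+ non-air replicate 2, and like Il1b, it was highest in Snx5-/- air lungs. Unlike Saa3 (-0.14), it was higher with air in Snx5-/- lungs. In non-air lungs it was higher in Snx5-/-, whereas Il1b averaged 7.87 in Snx5+/+ and 7.90 in Snx5-/-. Averaged over genotypes 6 of 9 tested markers were called higher with air, led by S100a9 (0.94, adjusted p = 0.00146, limma), against 1.40% of all tested genes. With an ordinary t-test this count was 0. In each genotype alone 4 markers were called higher with air, and 0 to 5 in Snx5+/+ and 0 to 6 in Snx5-/- lungs without 1 array. Of all tested genes 0.912% were called with air in Snx5+/+ and 0.764% in Snx5-/- lungs. Camp passed the intensity filter in Snx5+/+ lungs only through the air group, where it was high. The part of the neutrophil markers in the Saa3 and Il1b results was not tested. In whole lung, more cells of a type and more RNA per cell cannot be told apart.

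**Figure D4:**
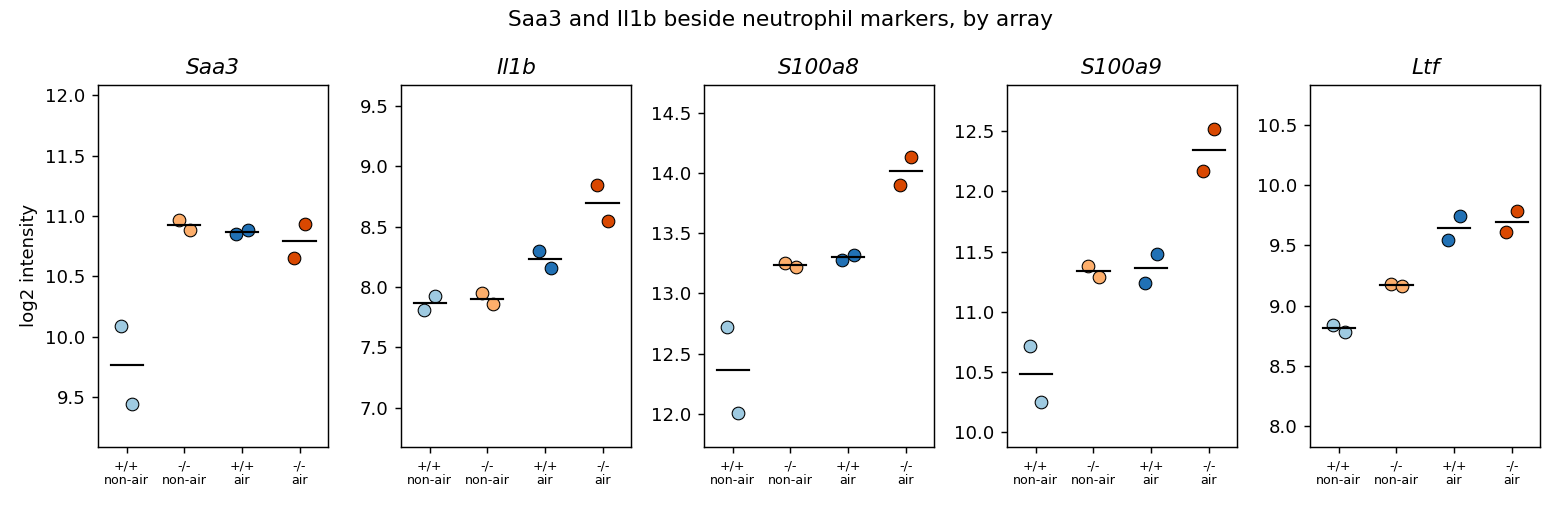
Log2 intensity (vertical axis, the same span in every panel) of Saa3, Il1b and the neutrophil markers S100a8, S100a9 and Ltf on 8 arrays, 1 point per array and a line at the mean of each group of 2. Saa3 and all 3 markers are lowest in Snx5+/+ non-air lungs, and Il1b, S100a8 and S100a9 are highest in both Snx5-/- air lungs.

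Markers of other cell types moved as well. Of 8 hepatocyte markers, Alb, Apoa1, Fgb, Ttr and Afp were not detected on any array, and the summed intensity was 1390 to 1419, 1904 to 1972, 1611 to 1612 and 1486 to 1510 in the same order of groups. The sum was highest in Snx5-/- non-air lungs, with the undetected genes adding only background signal. The fibrinogen chain gene Fga, detected on 2 arrays, averaged 7.38, 8.38, 7.84 and 7.55. Between genotypes in non-air lungs 3 of 4 tested markers were called higher, with a median of 0.83, given as a description. These were Fga, Ahsg and Apoa1, which passed the intensity filter only through Snx5-/- non-air lungs, where they were high. Nothing is read from the counts, here or below, because that filter favours a fall from this group. With air in Snx5-/- lungs 3 of 4 were called lower. Fga was -0.84 (adjusted p = 0.00643, limma), at least 1.31-fold. Ahsg was -0.61 at its dimmer probe (adjusted p = 0.0189, limma), at least 1.11-fold, and was not called at its brighter probe. Apoa1 was -0.55 (adjusted p = 0.0284, limma), with no fold because both groups were below background. These falls were not called in 3, 4 and 6 of 8 fits that left out 1 array, respectively. The same 3 genes were called in the interaction, at -1.30, -1.01 (brighter Ahsg probe) and -0.91 (adjusted p = 0.00297, 0.033 and 0.0114, limma). When 1 array was left out only Fga was called in all 8 fits.

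Of the erythroid markers, 4 of 5 were on the array and all 4 were detected. Slc4a1 and Alas2 were lower on average in Snx5-/- lungs in both air states, as was Hp. The globin genes were level in non-air lungs, with Hba-a1 at 16.06 in Snx5+/+ and 16.08 in Snx5-/-, and Hbb-bt at 13.91 in both. In air lungs Hba-a1 averaged 16.08 in Snx5+/+ and 16.05 in Snx5-/-, and Hbb-bt 14.04 and 13.65. As descriptions, Slc4a1, the anion exchanger of red cells, was -0.84 between genotypes in non-air and -1.56 in air lungs, and Alas2, which starts haem synthesis in red cell precursors, was -1.08 in air lungs. None of the 4 was called with air (limma), where 1 was higher in Snx5+/+ and 2 were lower in Snx5-/- lungs at an unadjusted p under 0.05. Monocyte and macrophage markers, 7 of 8 detected without Itgam, summed to 32100 to 41333 in Snx5+/+ non-air and 26056 to 26092 in Snx5-/- non-air lungs, and to 29794 to 34984 and 27944 to 38159 in the air lungs of the same genotypes. Most of each sum was Lyz2, which averaged 14.89 in Snx5+/+ and 14.35 in Snx5-/- non-air lungs. Between genotypes in non-air lungs 0 of 7 markers were called (3 lower at an unadjusted p under 0.05, limma). A positive difference was seen for 2 of 7, among them C1qb, at 10.30 and 10.35. Averaged over genotypes 2 of 7 were called higher with air, the complement genes C1qb (0.56, adjusted p = 0.00665) and C1qc (0.54, adjusted p = 0.00489, limma), and C1qb was not called in 2 of 8 fits without 1 array. The part of these cell types in the results for the members was not tested.

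Across the 8 arrays the genes most like each member were named among 9635 genes by Pearson's r, as a description with no p, since all share the same 4 groups. Closest to Saa3 were Myl6 (0.974), Mipep (0.970) and Lpar4 (0.970), all lowest on average in Snx5+/+ non-air lungs. Closest to Hp were Rrm2 (0.983), Reep1 (0.967) and Sybu (0.966), which were highest on average in Snx5+/+ air and lowest in Snx5-/- air lungs. Closest to Socs3 were Sgsm2 (0.976), Tmem125 (0.969) and Ttc19 (0.954). None of these 9 genes belongs to the lists above.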

How the data were processed

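RNA of whole embryonic lung was hybridised to MouseRef-8 v2 arrays (Illumina BeadChip, 1 colour). The authors deposited log2 intensities after quantile normalization, with a table of linear signal intensity and detection p-values for the same 8 arrays. How background was corrected was not given in the sources used. For the non-air mutants a description mentions wild-type lungs, and these samples were grouped by title and genotype. Of the per-sample columns, 0 were left unused.

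The log2 values were fitted with limma 3.58.1 in R 4.3.3 (lmFit, eBayes) over 4 groups without a block. Probes with a group mean above 8 in at least 1 group of a comparison were tested. Called probes had a p under 0.05 after Benjamini-Hochberg adjustment and a log2 difference above 0.3531 in size, and counts are of distinct genes. The platform annotation gave 1 gene to 23978 probes and none to 1719, and the brightest probe stood for a gene. A probe was above background at a detection p-value under 0.01. The fits were tested on simulated data. The members, gene lists and motifs were chosen with earlier results of these data known. The named genes are every member at every probe, Snx5, up to 3 called genes per list, direction and comparison, and the 3 genes most like Saa3, Hp and Socs3. Some list genes called between genotypes were left out, because the members were chosen from that difference. Promoters come from RefSeq.

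Each result was computed again from the intensity table with its own labels, with neqc (offset 16), with median scaling, with 64 added to each signal, from only the arrays compared, without the intensity filter or with one on detection, with an intensity trend, with a replicate block, without the fold limit, with the methods' t-test, with the mean over probes of a gene, and without each array. The number of arrays limits the precision.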

Additional observations from a re-analysis of the deposited data

Results flagged for a closer look

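Tnfaip3 differed with air in opposite directions in the 2 genotypes: both air arrays lay above both non-air arrays in Snx5+/+ lungs and below them in Snx5-/- lungs. The difference between these air effects was -0.35 on the log2 scale, and the interaction test did not pass (adjusted p = 0.43, limma). The brightest Hp probe did the same, with a difference of -0.40 between the air effects, and it was not called in the interaction test (limma). The other Hp probes gave -0.18 and -0.09. The sex-linked genes that set the Snx5-/- air arrays apart move with both values, and their part was not tested.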

How the results depend on the processing

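The values below are numbers of called members, against 1, 1 and 3 between genotypes in non-air lungs, air lungs and averaged, 1, 1 and 1 with air in Snx5+/+ lungs, Snx5-/- lungs and averaged, and 0 for the interaction. An ordinary t-test, adjusted over all probes and not the full procedure of the study, called 0 in each of the first 6 comparisons. With neqc the count was 0 in non-air lungs and 0 in each air comparison: Saa3 in Snx5+/+ lungs was 1.29 with an adjusted p of 0.0527 (limma), and Il1b lay under the intensity filter. With the arrays of a comparison alone it was 0 in non-air lungs and 0 with air in Snx5+/+ lungs; averaged differences and the interaction already use every array. With 64 added it was 2 in non-air lungs and 2 for averaged air, and without an intensity filter 2, 2 and, for the interaction, 1. The intensity trend and the mean of a gene's probes gave 2 for averaged air, the added gene being Socs3, and median scaling gave 1 for the interaction. Leaving out 1 array gave 0 to 4 in non-air lungs, 0 to 1 in air lungs, 0 to 4 for the averaged genotype difference, 0 to 1 with air in each genotype, 1 to 2 for averaged air and 0 to 1 for the interaction. The cause was not tested.

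Under the other air labels the called values reversed: Saa3 was -0.09 between genotypes in non-air and 1.16 in air lungs and -1.11 with air in Snx5+/+ lungs, and Il1b was -0.80 with air in Snx5-/- lungs and -0.58 averaged. Same-numbered arrays of different groups share only a number, since their deviations correlated between -0.227 and 0.278 over 13830 probes. With the replicate number as a block the counts were 1, 1, 2, 1, 1, 1 and 0, and Saa3 was the lost call. For the averaged genotype difference, neqc and median scaling also gave 2, again without Saa3. Signals near background, as for Il1b, Il6 and Snx5, limit what these arrays can show.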
